A study of Mus musculus with 6 samples.

Results

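Haem is the iron-bearing ring that liver cells build into cytochrome P450 enzymes and other proteins, and its synthesis and breakdown were followed in the livers of mice bred for running. The genes described are 9 enzymes of this route: Alas1, Alas2, Alad, Uros, Urod, Cpox and Fech make haem, and Hmox1 and Blvrb break it down. They are represented on the array by the probe sets whose only gene symbol is 1 of these 9, which gave 14 of 22626 tested probe sets and 9 of 12393 genes. The genes were chosen as a pathway from an earlier reading of the DUhTP against DUC fold changes and p-values of the same 6 arrays, so every difference between the lines in a member is given as a description, and the p-values printed for members come from the fit over the whole array and support nothing further.

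Liver mRNA transcript abundance was measured on Affymetrix mouse genome arrays in DUhTP (marathon) mice, a line kept under long-term selection for high treadmill performance, and in DUC mice, the unselected controls, with 3 arrays per line. All mice were 70 days old, and the study's methods describe males. Both lines descend from the same cross of 4 outbred (CFW, CF1, Han:NMRI and NMRI orig.) and 4 inbred (C57BL/Bln, CBA/Bln, AB/Bln and XVII/Bln) stocks and are bred to avoid inbreeding, so the lines are outbred populations and no known allele defines the contrast. The labels describe each sample as a mouse and the study's methods as a pool, so an SD is the spread between arrays, whether of mice or of pools.

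The route starts when ALAS joins glycine and succinyl-CoA to 5-aminolaevulinic acid, the step that limits the rate. Alas1 encodes the ALAS of liver and most other tissues, which haem itself represses, and Alas2, on the X chromosome, encodes the ALAS of red cell precursors. Alad, Uros, Urod and Cpox then build and trim the ring, and Fech inserts the iron. Haem oxygenase opens the ring to biliverdin, which the enzyme of Blvra reduces to bilirubin, and Blvrb encodes biliverdin reductase B.

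Each value is a PLIER intensity, a linear signal in arbitrary units that summarizes the probes of a probe set, and levels of different probe sets cannot be set against each other. Fold changes are log2 values, DUhTP over DUC, from limma's moderated test with p adjusted by Benjamini-Hochberg over all 22626 probe sets, and a probe set was called at an adjusted p under 0.05. The median intensity was 53.1 to 56.6 on the DUhTP arrays and 56.3 to 57 on the DUC arrays. Log2 intensities correlated at 0.959 to 0.967 among DUhTP arrays, 0.974 to 0.976 among DUC arrays and 0.950 to 0.963 between the lines. The 7 hepatocyte markers measured had a summed intensity of 75081 to 76680 in DUhTP livers and 77254 to 82150 in DUC livers, with 0 of 7 called by limma, also with 16 added to every intensity, and 1 of 7 lower at an unadjusted p under 0.05. Marker sums of Kupffer cells and macrophages, which are cells of the liver, and of another tissue, the exocrine pancreas, also set the lines apart. The 15 Kupffer cell and macrophage markers summed to 7347, 8556 and 8081 in DUhTP livers, against 6841, 5736 and 6007 in DUC livers. Of the 15, limma called 1 higher, Clec4f, while 8 were higher and 2 lower at an unadjusted p under 0.05. With 16 added, 6 were called higher and 2 lower. The 10 exocrine pancreas markers summed to 4505, 1042 and 2846 in DUhTP livers, against 5276, 10330 and 7720 in DUC livers, with 0 of 10 called by limma, 7 lower in DUhTP livers at an unadjusted p under 0.05 and 6 lower with 16 added. Among all genes, 1.92% were called higher and 1.4% lower, and with 16 added 5.31% and 6.0%. The shares at an unadjusted p under 0.05 were 13.4% higher and 14.2% lower. In bulk liver, fewer cells of a type and less RNA per cell cannot be told apart.

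The promoters of the genes at the head of the route are shown first, because Alas1 and Alas2 catalyse the same reaction and lay on opposite sides of 0 in DUhTP livers. The sequences are from RefSeq on build GRCm38.p6, 250 bases up to the start, and cover chr9:106247955-106248204 on the minus strand for Alas1, chrX:150547167-150547416 on the plus strand for Alas2 and chr4:62520064-62520313 on the minus strand for Alad. Capitals mark CCACCC, the core for erythroid Kruppel-like factors (here on the other strand as GGGTGG), in Alas1 and Alas2, AGATAA, the core for GATA factors (here on the other strand as TTATCT), in Alas2, and CACGTG, the E-box, in Alad.
Alas1: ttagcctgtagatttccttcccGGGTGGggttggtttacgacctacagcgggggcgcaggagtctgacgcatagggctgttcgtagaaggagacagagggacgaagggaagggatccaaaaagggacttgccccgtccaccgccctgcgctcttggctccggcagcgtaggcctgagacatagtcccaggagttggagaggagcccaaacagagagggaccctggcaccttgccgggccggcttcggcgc
Alas2: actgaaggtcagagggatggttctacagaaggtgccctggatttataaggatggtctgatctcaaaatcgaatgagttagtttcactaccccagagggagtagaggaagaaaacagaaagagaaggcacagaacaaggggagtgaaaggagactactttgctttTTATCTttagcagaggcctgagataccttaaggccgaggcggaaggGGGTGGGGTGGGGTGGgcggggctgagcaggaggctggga
Alad: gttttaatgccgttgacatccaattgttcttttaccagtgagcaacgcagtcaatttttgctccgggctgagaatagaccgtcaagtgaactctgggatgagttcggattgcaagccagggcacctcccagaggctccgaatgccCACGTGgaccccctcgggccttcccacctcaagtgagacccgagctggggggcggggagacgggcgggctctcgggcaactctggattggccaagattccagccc
The Alas2 window has the GATA match 86 bases before the start and 3 overlapping CCACCC matches that begin 40, 35 and 30 bases before it. The Alas1 window has 1 CCACCC match 228 bases before the start and none of AGATAA. Of 32851 promoter windows searched on both strands, which also hold the 50 bases after the start, 11.2% had AGATAA, 31.5% CCACCC and 7.15% CACGTG, so CCACCC in particular is common. Alas1 also has the palindrome bound by NRF1 (GCGCA, any base, GCGC), present in 4.6% of windows, at positions 1 and 30 after the start, and the copy at position 30 is shown.
Alas1 at position 30: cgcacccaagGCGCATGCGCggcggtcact
The Alad window has CACGTG 105 bases before the start, and a second start of the gene has one 28 bases before it. Urod had CACGTG 49 bases before the start, and Uros had it 250 bases before the start and the NRF1 palindrome 47 bases before the start. Cpox had AGATAA at position 5 after the start, shown here with its flanks.
Cpox at position 5: gggtgcagtcTTATCTgctctttccg
The AP-1 core TGACTCA, found in 5.20% of windows, was in none of the windows of the 7 members in the table. These matches describe letters only, and binding was not measured.

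Alas1 read lower in DUhTP livers on both of its probe sets, 1 of which was called. The brighter Alas1 probe set, 1424126_at, read 948, 1725 and 1240 in DUhTP livers, against 3365, 2689 and 2816 in DUC livers. The lines did not overlap, and DUhTP array 2 was the nearest to the DUC range. The means were 1304 ± 393 in DUhTP livers and 2957 ± 359 in DUC livers (SD, n = 3 each), a log2 fold change of -1.22 (95% interval -1.81 to -0.63), with an adjusted p of 0.0652 in limma, which misses the threshold. The other Alas1 probe set, 1455282_x_at, read 540, 686 and 566 in DUhTP livers, against 1567, 1237 and 1877 in DUC livers. Here too the lines stood apart, with 597 ± 78.0 in DUhTP livers and 1561 ± 320 in DUC livers (SD, n = 3 each). Its log2 fold change was -1.37 (SE 0.19, 95% interval -1.85 to -0.90) with an adjusted p of 0.0322 in limma, so it was called. The suffix _x_at marks probes that can also match other transcripts, and the part of such transcripts in its values was not tested. With 16 added to every intensity, as PLIER pipelines often do, both Alas1 probe sets were called, with adjusted p values of 0.00590 and 0.00113 in limma. Between the lines, the exocrine pancreas markers lay in the same direction as Alas1, lower in DUhTP livers. Within each line, the array with the highest marker sum (4505 in DUhTP, 10330 in DUC) had the lowest Alas1 on both probe sets. The part of pancreas RNA in the Alas1 difference was not tested.

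Alas2 lay the other way. Its probe set, 1451675_a_at, read 1558, 1187 and 1203 in DUhTP livers, against 715, 763 and 650 in DUC livers. Every DUhTP array was above every DUC array, and DUhTP array 1 was the highest. The means of 1316 ± 210 in DUhTP livers and 709 ± 56.7 in DUC livers (SD, n = 3 each) went with a fitted log2 fold change of 0.88 (1.85-fold on the fitted scale, SE 0.15, 95% interval 0.51 to 1.26) with an adjusted p of 0.0499 in limma. This call sits at the edge of the threshold: its adjusted p was 0.0563 with the probe sets marked _x_at or _s_at left out of the fit and 0.00448 with 16 added.

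**Figure D1:**
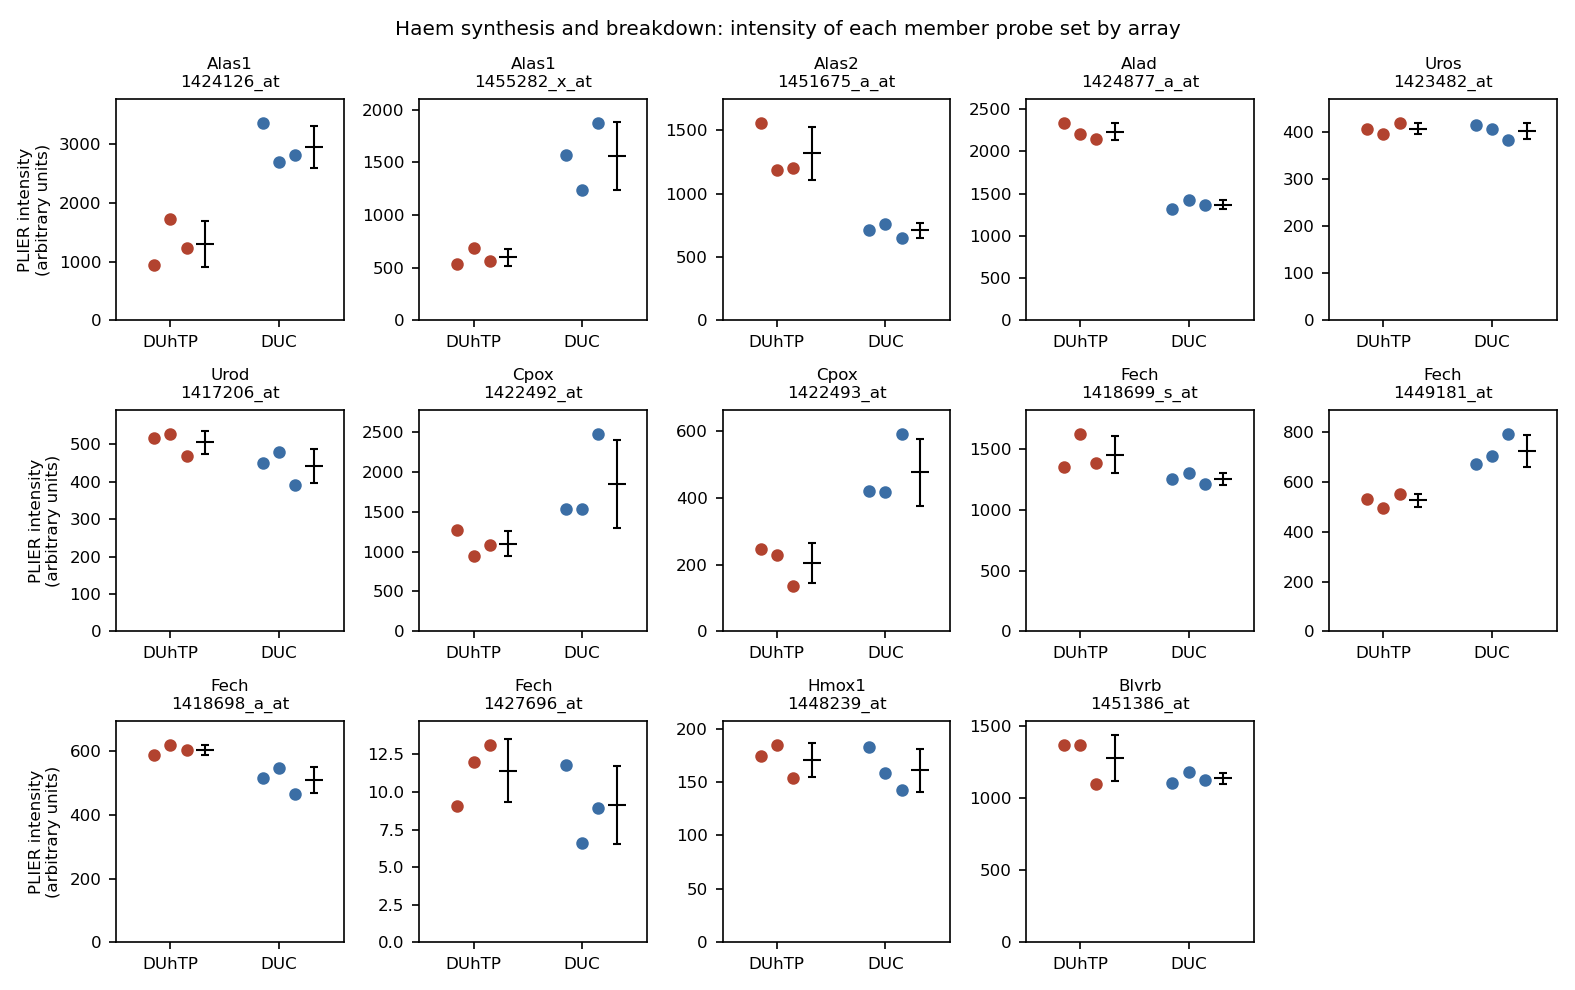
PLIER intensity in arbitrary units of each of the 14 member probe sets on every array, DUhTP livers left in red and DUC livers right in blue, with the mean and SD of each line (n = 3) as a black bar. Both Alas1 and both Cpox probe sets lie lower in DUhTP livers without overlap, Alas2 and Alad lie higher without overlap, and Uros, Urod, Hmox1 and Blvrb overlap.

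Since Alas2 is a gene of red cell precursors, the other transcripts of that lineage were set beside it. The beta-globin probe set 1417184_s_at, which matches several beta-globin genes, read 7650, 7879 and 8769 in DUhTP livers, against 7811, 7360 and 6777 in DUC livers, and the lines overlapped. Its log2 fold change was 0.15 with an adjusted p of 0.524 in limma. The 3 alpha-globin probe sets that match several alpha-globin genes had log2 fold changes of 0.11, 0.15 and 0.39, with 0 of 3 called by limma and 1 of 3 at an unadjusted p under 0.05, which 21.1% of all probe sets passed. The probe set with the value of 0.39, 1417714_x_at, read 3280, 3473 and 3812 in DUhTP livers, against 2839, 2692 and 2541 in DUC livers, which did not overlap (adjusted p = 0.140 in limma). The 4 probe sets whose only symbol is Hba-a1, Hba-a2 or Hbb-b2 had log2 fold changes of -0.54 (Hbb-b2 1427865_at), 0.00 (Hbb-b2 1427866_x_at), -0.08 (Hba-a1 1453574_at) and 0.25 (Hba-a2 1427219_at). The lines overlapped in each. The globin probe sets were picked after their values were seen. Of 20 erythroid markers listed, 14 had a probe set of their own, and they summed to 701, 660 and 706 in DUhTP livers, against 747, 703 and 746 in DUC livers. Of the 14, limma called 0, while 1 was higher and 4 lower in DUhTP livers at an unadjusted p under 0.05, and with 16 added Gypc was higher and Sptb lower in DUhTP livers. Gata1 and Klf1, the factors that drive Alas2 in red cell precursors, averaged 60.8 and 79.1 in DUhTP livers, against 72.6 and 69.7 in DUC livers, with log2 fold changes of -0.26 and 0.20 that were not called. Rhag, Ermap, Tspo2 and Hemgn averaged under 11 in both lines. The sum leaves out the globin probe sets that match several genes, which were far brighter, and the part of red cell RNA in the Alas2 difference was not tested.

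**Figure D2:**
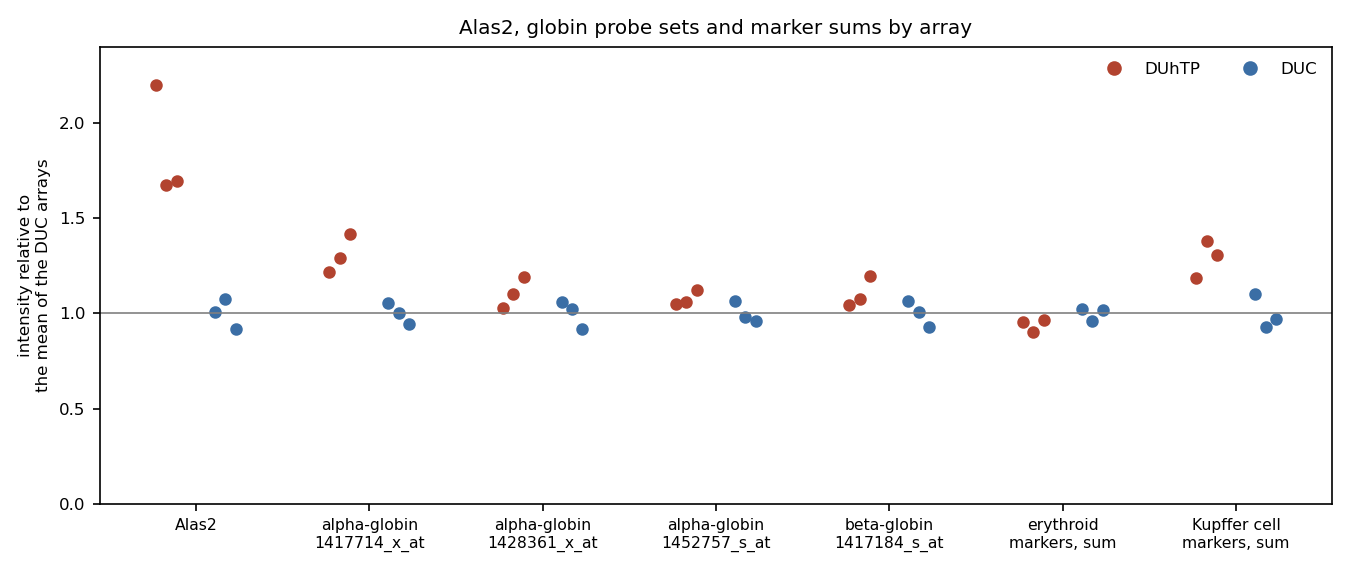
Intensity on each array relative to the mean of the 3 DUC arrays, for Alas2, 4 globin probe sets that match several globin genes, and the summed erythroid and Kupffer cell markers, with DUhTP in red left of DUC in blue. Alas2 lies highest relative to DUC, while the summed erythroid markers in DUhTP livers average 0.94 of the DUC mean. Before scaling, these sums were 660 to 706 in DUhTP livers and 703 to 747 in DUC livers.

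Alad, which joins aminolaevulinic acid into porphobilinogen, was higher in DUhTP livers. Its probe set 1424877_a_at read 2338, 2205 and 2148 in DUhTP livers, against 1319, 1419 and 1366 in DUC livers. The gap between the lines was far wider than the spread within either, with coefficients of variation of 4.36% in DUhTP livers and 3.68% in DUC livers. The means were 2230 ± 97.3 in DUhTP livers and 1368 ± 50.3 in DUC livers (SD, n = 3 each), with a fitted log2 fold change of 0.70 (1.63-fold, SE 0.10, 95% interval 0.45 to 0.96) and an adjusted p of 0.0335 in limma.

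Uros, which closes the ring, read 406, 395 and 419 in DUhTP livers, against 415, 406 and 382 in DUC livers. The lines overlapped, and the log2 fold change of 0.02 had a 95% interval of -0.23 to 0.27, so a change of the size seen in Alad lies outside it. Urod, which trims the side chains of the ring, read 517, 528 and 469 in DUhTP livers, against 451, 480 and 391 in DUC livers. The lines overlapped here as well, with a log2 fold change of 0.20 (95% interval -0.11 to 0.51) and an adjusted p of 0.423 in limma.

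Cpox, which makes protoporphyrinogen in mitochondria, read lower in DUhTP livers on both probe sets, but neither was called. The probe set 1422492_at read 1268, 949 and 1084 in DUhTP livers, against 1528, 1530 and 2476 in DUC livers. There was no overlap, but DUC array 3 was far above the other DUC arrays. The log2 fold change was -0.72 (SE 0.23, 95% interval -1.29 to -0.14) with an adjusted p of 0.167 in limma. The dimmer probe set 1422493_at read 246, 230 and 135 in DUhTP livers, against 420, 417 and 592 in DUC livers, again without overlap and with DUC array 3 highest. Its log2 fold change was -1.25 (SE 0.28, 95% interval -1.95 to -0.56) with an adjusted p of 0.0837 in limma, and of 0.0097 with 16 added. As for Alas1, the exocrine pancreas markers were lower in the same livers, and their part was not tested.

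Ppox, which oxidizes the product of Cpox and was named to complete the pathway, read 59.4, 48.3 and 40.3 in DUhTP livers, against 45.7, 50.04 and 43.9 in DUC livers on 1416618_at, with full overlap and a log2 fold change of 0.07.

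Fech, the ferrochelatase that inserts iron, had 4 probe sets that disagreed. The brightest, 1418699_s_at, read 1351, 1630 and 1386 in DUhTP livers, against 1253, 1309 and 1211 in DUC livers, a log2 fold change of 0.21 (adjusted p = 0.383 in limma). A second, 1418698_a_at, read 590, 621 and 606 in DUhTP livers, against 516, 549 and 468 in DUC livers, a log2 fold change of 0.25 (adjusted p = 0.271 in limma). Both were higher in DUhTP livers without overlap and neither was called. In 1449181_at the order was the other way, with 530, 497 and 551 in DUhTP livers, against 674, 705 and 794 in DUC livers, again without overlap. Its log2 fold change was -0.46 (95% interval -0.75 to -0.17) with an adjusted p of 0.106 in limma, and of 0.0389 with 16 added. The fourth, 1427696_at, was dim at 9.08 to 13.1 in DUhTP livers and 6.64 to 11.8 in DUC livers. No direction for Fech can be read from these probe sets.

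**Figure D3:**
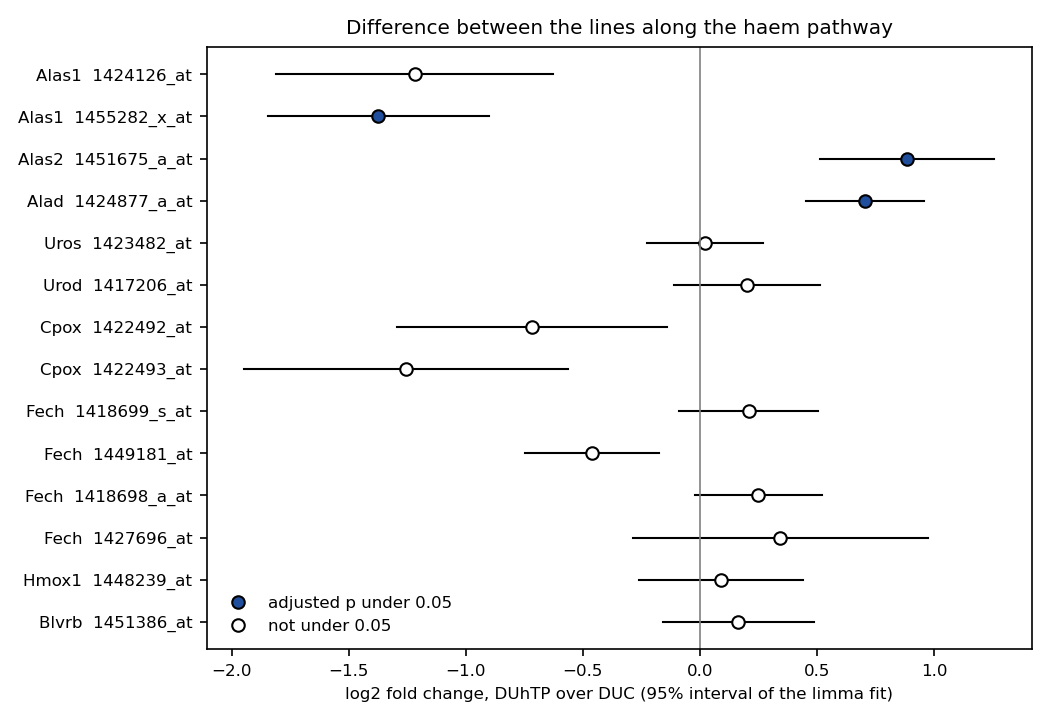
Log2 fold change, DUhTP over DUC, of the 14 member probe sets in the order of the pathway, with the 95% interval of the limma fit as a line and filled points at an adjusted p under 0.05. The filled points are Alas1 1455282_x_at at -1.37, Alas2 at 0.88 and Alad at 0.70, and the 4 Fech probe sets fall on both sides of 0.

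On the side of breakdown, neither member was called. Hmox1, the inducible haem oxygenase, read 174, 185 and 154 in DUhTP livers, against 182, 158 and 142 in DUC livers. The lines overlapped, with means of 171 ± 15.8 in DUhTP livers and 161 ± 20.2 in DUC livers (SD, n = 3 each) and a log2 fold change of 0.09 (95% interval -0.26 to 0.44, adjusted p = 0.768 in limma). Kupffer cells take up old red cells and carry Hmox1, and the summed Kupffer cell markers were 1.29-fold higher in DUhTP livers, whose part in the Hmox1 level was not tested. Blvrb, biliverdin reductase B, read 1373, 1374 and 1099 in DUhTP livers, against 1104, 1182 and 1131 in DUC livers. DUhTP array 3 fell below all DUC arrays, so the lines overlapped, and the log2 fold change was 0.16 (95% interval -0.16 to 0.49).

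The enzymes beside these members were named to complete the pathway, after their values were seen. Hmox2, the constitutive haem oxygenase, read 691, 668 and 806 in DUhTP livers, against 866, 944 and 884 in DUC livers, without overlap. Its log2 fold change was -0.32 with an adjusted p of 0.210 in limma. Blvra, which reduces biliverdin to bilirubin, read 156, 178 and 189 in DUhTP livers, against 108, 104 and 116 in DUC livers. Its log2 fold change of 0.68 just missed the threshold at an adjusted p of 0.0543 in limma, and with 16 added the adjusted p was 0.0114.

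Over the 14 member probe sets, 3 were called, 2 higher (Alas2 and Alad) and 1 lower (Alas1 1455282_x_at) in DUhTP livers. Of all probe sets, 2.41% were called, 1.36% higher and 1.05% lower, and since the members were listed with this contrast known, nothing is read from their count. Just inside the threshold lay Alas2 at an adjusted p of 0.0499 and just outside it Alas1 1424126_at at 0.0652. With 16 added 6 of 14 were called, 2 higher and 4 lower, against 8.62% of all probe sets. The lines did not overlap in 9 of the 14, 4 higher and 5 lower in DUhTP livers, where 13.6% of all probe sets were higher and 15.8% lower without overlap. Over the 9 genes, each taken at its brightest probe set, the median log2 fold change was 0.16, against 0.00 over all 12393 genes.

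The 3 calls rest on all 6 arrays. Leaving out any 1 array ended each of them, with adjusted p values of 0.0662 to 0.119 for Alas1 1455282_x_at, 0.0878 to 0.166 for Alas2 and 0.0805 to 0.138 for Alad in limma, and no change of direction. The loss was not particular to these genes, since calls over all probe sets fell from 546 to between 1 and 122. With 16 added, an alternative chosen after the data were seen, all 3 stayed called without any 1 array, at adjusted p values of at most 0.00935, 0.0331 and 0.0245. Calls over all probe sets then numbered 771 to 1591.

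The 3 groups of genes around the route were then counted. Their lists were written by pathway with earlier results of these data known, so nothing is read from their counts. Over all genes, 1.92% had a probe set called higher in DUhTP livers and 1.4% lower, and with 16 added 5.31% and 6.0%. At an unadjusted p under 0.05 these shares were 13.4% higher and 14.2% lower. Of 24 measured genes of haem transport, delivery and the other enzymes, 1 was higher and 0 lower in limma (5 and 3 at an unadjusted p under 0.05), with a median log2 fold change of 0.06. The 1 called was Slc46a1, a folate carrier that can also carry haem. Its brighter probe set, 1426715_s_at, read 364, 314 and 289 in DUhTP livers, against 98.1, 114 and 151 in DUC livers, all DUhTP arrays being above all DUC arrays. The log2 fold change was 1.43 (SE 0.20) with an adjusted p of 0.0316 in limma, and the second probe set, 1426714_at, gave 1.66 with 0.0310. The haem binder of plasma, Hpx, and the haemoglobin binder, Hp, had log2 fold changes of 0.04 and 0.00 and overlapped. Pgrmc1, a membrane haem-binding protein, was at 0.01. With 16 added Slc46a1, Abcb10 and Blvra were higher and Flvcr2 and Hccs lower. Hccs, which attaches haem to cytochrome c and was named after its values were seen, averaged 89.9 ± 22.5 in DUhTP livers and 191 ± 13.0 in DUC livers (SD, n = 3 each) on 1420890_at. Its log2 fold change was -1.12 there (adjusted p = 0.0589 in limma) and -0.45 on its other probe set, 1420889_at (adjusted p = 0.154 in limma). In limma, 0 genes of this list stayed called when any 1 array was left out, against 3 to 4 when 16 was also added.

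Of 21 measured regulators of Alas1, Alas2 and Hmox1, 0 were higher and 1 lower in limma (2 and 6 at an unadjusted p under 0.05), with a median log2 fold change of -0.20. The 1 called was Ppargc1a, a coactivator that raises Alas1 in fasted mouse liver. It was dim, and its brightest probe set, 1460336_at, read 20.7, 14.7 and 22.4 in DUhTP livers, against 42.6, 49.8 and 38.0 in DUC livers. The log2 fold change was -1.19 (SE 0.20) with an adjusted p of 0.0499 in limma. A second probe set, 1437751_at, gave -1.15 (SE 0.13) with an adjusted p of 0.0228. Hnf4a, a hepatocyte factor with sites at Alas1, read 2966, 3093 and 3284 in DUhTP livers, against 3859, 4222 and 4356 in DUC livers on its brightest probe set. These did not overlap, the log2 fold change was -0.41 and the adjusted p of 0.116 in limma missed the threshold. Its other probe sets were at -0.48 (1421983_s_at), -0.66 (1427000_at, adjusted p = 0.0590 in limma) and -0.57 (1450447_at). None of them was called, and the lines overlapped in 1450447_at only. Aco1, the iron regulatory protein that binds the Alas2 message, was at 0.15 on the log2 scale on its brighter probe set. Its other probe set, 1423644_at, was at 0.38 and the lines did not overlap. Nr1i3, a receptor through which drugs induce Alas1, was at -0.06, and neither Aco1 nor Nr1i3 was called. Nr1i2, a listed regulator named after its values were seen, was at -0.19 (1425723_at) and -0.25 (1451807_at). The lines did not overlap in either, and Nr1i2 was not called. With 16 added Ppargc1a, Hnf4a and Hif1a were lower and 0 of 21 were higher. With any 1 array left out, 0 to 1 gene was called in limma, against 1 to 4 with 16 also added.

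Of 27 measured haem proteins and their reductases, 4 were called higher and 4 lower in DUhTP livers, with a median log2 fold change of -0.08. The shares over all genes were 1.92% and 1.4%, and the list was chosen with earlier results of these data known. At an unadjusted p under 0.05, 14 of the 27 passed, 7 higher and 8 lower, with Cyb5r3 on both sides. The genes called higher were the P450s Cyp2b9, Cyp3a13 and Cyp51, and Cyb5b, the cytochrome b5 of mitochondria. Those called lower were the P450s Cyp4a14, Cyp17a1, Cyp7a1 and Cyp2d13. Cyp2b9 read 1382, 895 and 1105 in DUhTP livers, against 66.1, 55.6 and 68.7 in DUC livers, a log2 fold change of 4.13 (SE 0.19, adjusted p = 0.0071 in limma). Cyp3a13 had a log2 fold change of 1.35 (SE 0.16, adjusted p = 0.0228 in limma). Cyp4a14, a fatty acid hydroxylase, read 1034, 762 and 1011 in DUhTP livers, against 5290, 6239 and 6354 in DUC livers, a log2 fold change of -2.68 (SE 0.17, adjusted p = 0.0071 in limma). Cyp17a1, the steroid 17-alpha-hydroxylase, read 27.9, 8.72 and 26.8 in DUhTP livers, against 343, 472 and 402 in DUC livers, a log2 fold change of -4.43 (SE 0.48, adjusted p = 0.0200 in limma). At DUhTP levels this dim the size depends on the constant, and adding 16 gave -3.54 on the log2 scale. The 3 brightest haem proteins outside the calls, Cyp2e1, Cyp3a11 and Cyb5a, had log2 fold changes of -0.08, -0.10 and 0.04, and the lines overlapped in each. P450 transcripts thus lay on both sides of 0. With any 1 array left out, 0 to 5 genes were called in limma, against 9 to 11 with 16 also added.

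**Figure D4:**
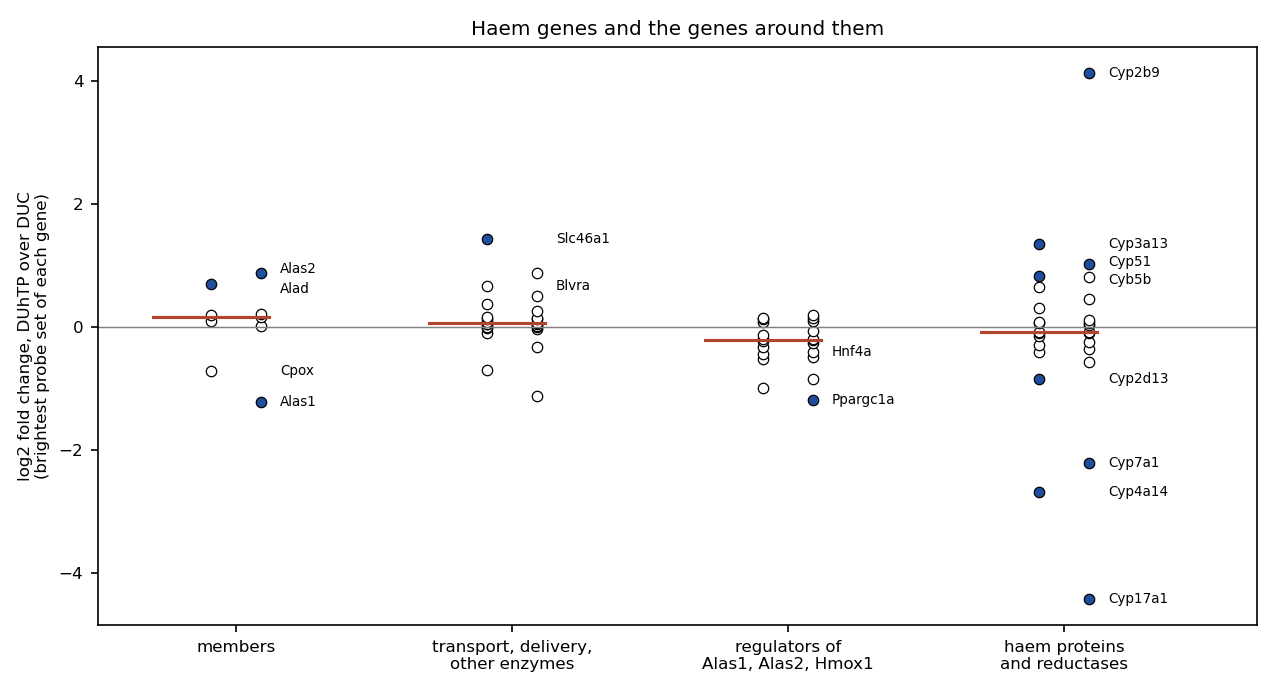
Log2 fold change, DUhTP over DUC, of the brightest probe set of each gene in the 9 members and the 3 lists of 24, 21 and 27 genes. Filled points are genes with a probe set at an adjusted p under 0.05 and red bars are list medians, which lie at 0.16, 0.06, -0.20 and -0.08.

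The genes closest to a member in profile over the 6 arrays were sought among 9056 genes, by the root mean square difference of log2 values centred on their means. Nearest to Alas1 were Zfp955a (0.155), Cdkn1a (0.170), Gadd45g (0.198), Abhd1 (0.213) and Tbc1d8 (0.217). Cdkn1a, a cell cycle inhibitor, read 98.3, 158 and 101 in DUhTP livers, against 276, 233 and 314 in DUC livers, so its arrays also fell into separate ranges. Nearest to Alas2 were Car14 (0.0580), Rnf186 (0.0737), Sult5a1 (0.0893), Prss29 (0.0915) and Ndufaf1 (0.0933). Nearest to Hmox1 were Rangrf (0.0325), Pmpca (0.0379), Suox (0.0444), Ccdc102a (0.0448) and Nktr (0.0455). These genes were ranked by likeness, so their fold changes carry no test.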

How the data were processed

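Gene expression in mouse liver was deposited by the authors as 1 table of 22690 probe sets on 6 arrays, 3 of DUhTP and 3 of DUC mice. Per the submitters' processing notes and the study's methods, arrays were globally scaled in GCOS 1.1.1 and summarized with PLIER, so the deposited values are intensity values on a linear scale. They reach down to 0.101, and a constant added before the logarithm shrinks fold changes of dim probe sets. After leaving out 64 control probe sets, log2 intensities without a constant were compared in limma 3.58.1 (R 4.3.3, lmFit and eBayes), with p adjusted by Benjamini-Hochberg over 22626 probe sets. Tables were made in Python 3.11.15. Symbols came from the array annotation: 20380 probe sets carried 1 symbol, of which 20351 matched the reference by gene number and 0 changed, 691 carried several and 1555 none. Probe sets with several symbols were not assigned to a gene, except the globins where stated.

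The members, the lists and the markers were chosen with earlier results of these data known. Named were every member, from each list the called genes with the 4 smallest p and the 3 others of highest mean intensity, and for Alas1, Alas2 and Hmox1 the 5 genes nearest in profile. Other genes complete a count or the pathway and were named after their values were seen. A list gene was counted when at least 1 of its probe sets was called. Alternatives were a constant of 16, quantile normalization, removal of the dimmest 33.3% of probe sets or of those with the suffix _x_at or _s_at, limma-trend, array weights, the replicate number as a block, and omission of each array. The number of arrays limits the precision, and an exact two-sided permutation test of 3 against 3 cannot give a p below 0.1. RefSeq promoters of GRCm38.p6 were searched for 5 motifs, and 7 of the 9 members had an entry. Protein sequences were not used here.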

Additional observations from a re-analysis of the deposited data

How the results depend on the processing

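The 14 member probe sets kept their direction in every alternative except Uros, whose log2 fold change of 0.02 became -0.0015 without DUhTP array 3 and -0.0140 without DUC array 3 (range 0.0462 to -0.0140 over the arrays left out, and -0.0014 and -0.0134 with 16 added), with no call in any case. Across member probe sets and alternatives, those with an array left out and 16 added set aside, 144 results kept their side of the threshold, 11 came to pass it, 22 no longer did and 2 changed sign. In limma 546 probe sets were called, 308 higher and 238 lower. With 16 added there were 1951 (888 higher and 1063 lower), so the balance turned, with the dimmest probe sets left out 1851 and with limma-trend 2350. Members called were 3, against 6, 6 and 7 under these settings, genes of transport and delivery 1, against 5, 5 and 5, regulators 1, against 3, 4 and 4, and haem proteins 8, against 11, 11 and 13. With quantile normalization 2 genes of transport and delivery were called and with array weights also 2. Without the probe sets marked _x_at or _s_at 1 member probe set was called.

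Leaving out 1 array at a time gave 1 to 122 calls over all probe sets. The calls were 0 for the members, 0 for transport and delivery, 0 to 1 for regulators and 0 to 5 for haem proteins. At an unadjusted p under 0.05, 3483 to 4586 of all 22626 probe sets passed, and 6 or 7 of the 14 member probe sets. In the lists, 6 or 7 genes of transport and delivery, 5 to 9 regulators and 12 to 14 haem proteins passed. With 16 added as well, an alternative chosen after seeing the data, the calls over all probe sets were 771 to 1591 (1570, 1530 and 961 without DUhTP array 2, DUhTP array 3 and DUC array 1). The calls were then 4 to 5 for the members, 3 to 4 for transport and delivery, 1 to 4 for regulators and 9 to 11 for haem proteins.

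Nothing in the labels pairs arrays by their replicate number. Same-numbered arrays deviated with a correlation of 0.0034 to 0.0667, and 2 of 6 arrays correlated best with their own number. With the replicate number as a block, limma called 0 of 22626 probe sets, 0 members, 0 genes of transport and delivery, 0 regulators and 0 haem proteins, while at an unadjusted p under 0.05 there were 4124 probe sets, 7 members, 6 genes of transport and delivery, 6 regulators and 12 haem proteins. The cause was not tested. With 3 arrays per line, a member at an adjusted p near 0.05 is not settled by these data.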
